A study of Danio rerio with 6 samples.

Results

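Integrins are the main receptors by which animal cells hold on to the extracellular matrix. Each receptor joins an alpha chain, which largely sets the ligand, to a beta chain. In most beta chains a short tail inside the cell recruits talin and kindlin and through them actin. Collagens, the substrate of the lysyl hydroxylase and glycosyltransferase Plod3, are bound by receptors of the beta 1 chain with the alpha 1, 2, 10 or 11 chain. Laminins of the basement membrane are bound by alpha 3 and alpha 6 chains among others, and proteins with an RGD motif such as fibronectin and vitronectin by alpha 5, alpha 8 and alpha v chains. In zebrafish, integrin receptors for fibronectin and laminin are known for their part in forming somite boundaries and in anchoring muscle fibers to the myosepta.

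The integrin genes were taken as the genes whose name begins with *itga* or *itgb*, which gave 35 of the 32520 genes in the deposited table. Of these, 21 encode alpha chains and 12 encode beta chains. The other 2 encode no integrin chain. They are *itgbl1*, which encodes an integrin beta-like protein, and *itgb1bp1*, which encodes a protein that binds the tail of the beta 1 chain, and both are given apart. Of the 33 chains, 30 reached a mean RPKM of 0.5 and entered the test, and *itga6l*, *itga2b* and *itgam* fell below this level.

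RNA was sequenced from whole larvae at 4 days post fertilization (dpf), with 60 larvae to a pool and 3 pools each of wild type (WT) and *mgt*. The *mgt* (maggot) larvae are homozygous for a chemically induced missense allele of *plod3*, which the labels call plod3 KO. The WT larvae were of AB, a laboratory strain, and the labels do not say that the WT larvae were siblings of the mutants. The labels give batch 1 to each WT pool and batch 2 to each *mgt* pool, and 0 batches hold both genotypes, so a batch difference and a genotype difference cannot be told apart. Since whole larvae were used, fewer cells of a type and less RNA per cell cannot be told apart either. Values are RPKM, read counts divided by gene length and library size, and fold changes are differences of log2(RPKM + 0.5), which understate the change of low genes.

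Library totals were about 38300000 to 50300000 reads, so that an RPKM of 0.5 stood for 19.2 to 25.1 reads per kilobase. WT replicate 1 stood apart from the other WT pools. On the first principal component it lay 0.53 of the way from WT replicates 2 and 3 to *mgt*. Over all genes tested it was above WT replicates 2 and 3 by a median of 0.28 on the log2 scale. Over the 30 integrin chains this median was 0.08. The *mgt* libraries were above WT replicate 1 by a median of 0.48 for the chains and 0.04 for all genes, and above WT replicates 2 and 3 by medians of 0.50 and 0.39. The targeted gene *plod3* had an RPKM of 16.8, 15.3 and 14.2 in WT and 23.9, 24.3 and 24.4 in *mgt*. The allele is a base change, so this level does not check the genotype.

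More integrin chains were higher than lower in *mgt*. Among the 30 chains tested, 18 were called higher and 2 lower, at a p below 0.05 from limma, adjusted by Benjamini-Hochberg over all 20435 genes tested, and a log2 fold change of at least 0.32 in size. Over all these genes 47.4% were called, 31.8% higher and 15.6% lower. The median log2 fold change was 0.62 over 18 alpha chains and 0.40 over 12 beta chains, against 0.29 over all genes tested. The 3 *mgt* libraries all lay above the 3 WT libraries in 19 chains and all below them in 3. Over all genes 63.4% had no overlap, 41.7% above and 21.6% below. For a single gene, no overlap gives a two-sided p of 0.10 in an exact permutation test, and 3 libraries against 3 allow no smaller. With median-of-ratios factors 10 chains were called higher and 6 lower, where all genes had 23.8% and 24.4%. With quantile normalization it was 9 and 6 (22.9% and 26.1% of all genes), and with libraries at equal sums 19 and 1 (43.3% and 9.3%). Without WT replicate 1, 18 chains were called higher and 3 lower, while the shares of all genes were 52.2% and 18.1%. Leaving out any one of the *mgt* replicates gave 8 to 10 chains higher and 1 lower. The shares of all genes in these fits were 11.5% to 11.9% higher and 8.28% to 8.8% lower.

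Integrin genes are long, and this moves with the result. The chains spanned a median of 49.3 kb from start to end in the genome, against 16.4 kb for all genes tested, and across genes the log2 fold change rose with span (Spearman's rho 0.32 over 20435 genes of the same 6 libraries). Among the other 5432 genes with spans in the middle range of the chains, from 22.9 to 71.9 kb, 39.2% were called higher and 9.04% lower, with a median of 0.46. When a trend with span was removed from each library, 12 chains were called higher and 3 lower. The shares over all genes in that fit were 30.1% and 13.4%. The alpha chains then had a median of 0.33 and the beta chains 0.27, and 15 of 30 chains lay above the median of all genes, as against 21 of 30 before.

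**Figure D1:**
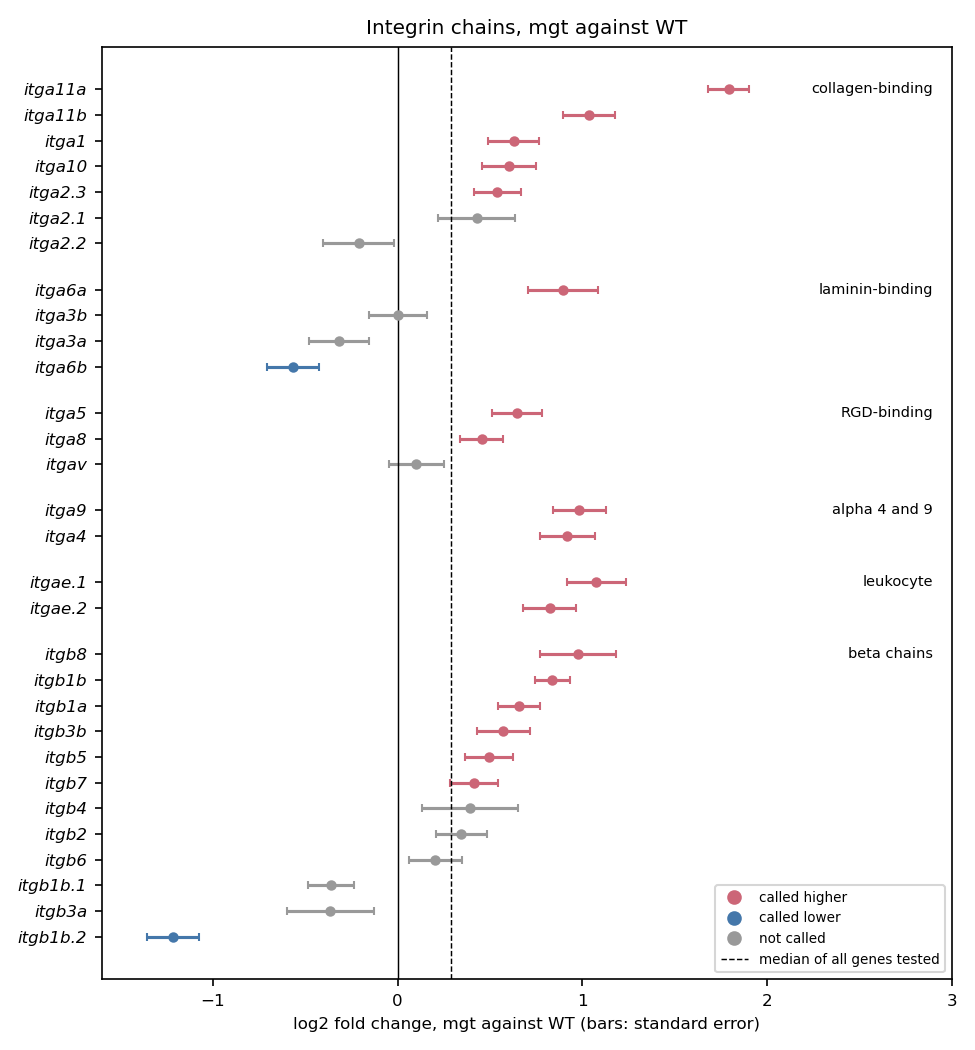
Log2 fold change of *mgt* against WT (x axis) for the 30 integrin chains tested (y axis), grouped by ligand class, with bars for the standard error and colors for the call from limma. Points run from -1.21 for *itgb1b.2* to 1.79 for *itga11a*, and 21 of 30 lie to the right of the dashed line at 0.29, the median of all genes tested.

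In WT, the levels per length ran over more than 2 orders of magnitude, and neighbours in that order mostly did not differ beyond their spread. The order opened with *itgb1b.1* at 40.1 ± 5.10 RPKM (SD, n = 3) and *itgav* at 37.8 ± 6.14 (SD, n = 3), whose libraries overlapped. Next came *itgb1b* at 22.5 ± 1.56 and *itgb1a* at 22.2 ± 3.04 (SD, n = 3), which overlapped each other and lay below *itgav* in every library. Of the steps between neighbouring chains, those without overlap were the steps from *itgav* to *itgb1b*, from *itga8* to *itga2.2*, from *itga9* to *itga11a*, from *itga6l* to *itga2b* and from *itga2b* to *itgam*. At the bottom stood *itga2b*, the thrombocyte alpha IIb chain, at 0.23 ± 0.040 RPKM and *itgam*, a leukocyte chain, at 0.17 ± 0.010 (SD, n = 3). In *mgt* the order opened with *itgb1b* at 40.5 ± 2.06, *itgav* at 40.3 ± 4.40 and *itgb1a* at 35.2 ± 0.45 RPKM (SD, n = 3), and *itgb1b.1* stood after these. The chain *itga11a* moved from place 21 to place 11 of the 33.

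**Figure D2:**
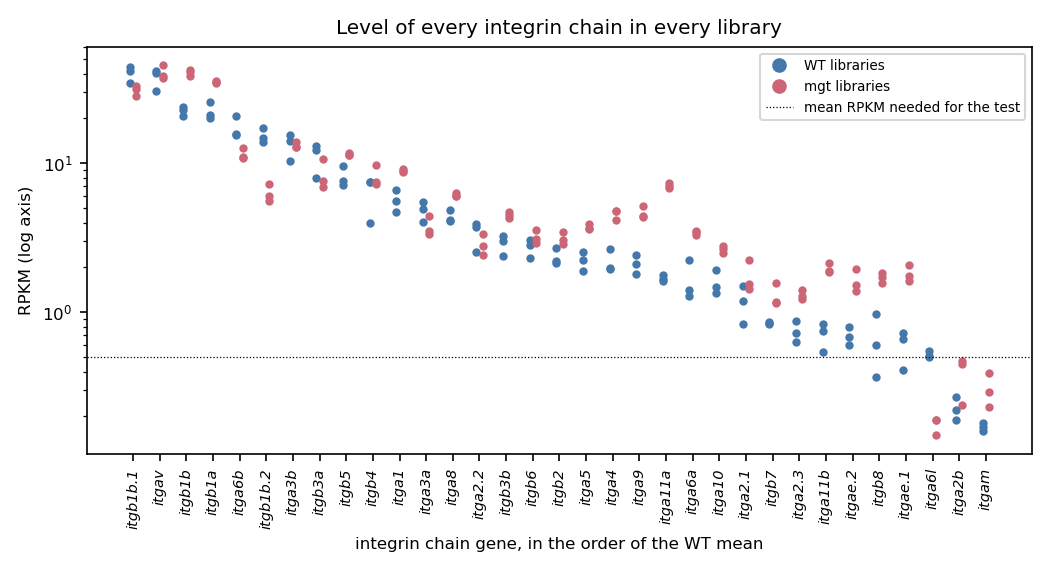
RPKM on a log axis (y) of each of the 33 integrin chains (x, in the order of the WT mean) in the 3 WT and the 3 *mgt* libraries, 1 point a library. The 3 chains at the right fall below the dotted line at an RPKM of 0.5 in their mean over libraries and were not tested, and *itga11a* is the chain whose *mgt* points stand farthest above its WT points on the log axis.

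The beta 1 chain is the partner of most alpha chains that bind matrix, and it is encoded by 4 genes in the table. Of these, 2 were called higher and 1 lower in *mgt*, against 31.8% and 15.6% of all genes tested. The gene *itgb1a* (ENSDARG00000071863, GRCz11 chromosome 24, 1110138 to 1151483) stood at an RPKM of 21.0, 25.7 and 20.0 in WT and 35.1, 35.7 and 34.8 in *mgt*. For *itgb1b* (ENSDARG00000104484, chromosome 2, 43577294 to 43583896) the values were 23.9, 22.7 and 20.8 in WT and 42.4, 40.8 and 38.3 in *mgt*. Both genes were higher in each *mgt* library than in any WT library. Their log2 fold changes were 0.66 (SE 0.11, adjusted p = 0.00678) and 0.84 (SE 0.095, limma adjusted p = 0.00163).

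The other copies had lower levels in *mgt*, and 1 of them was called. The RPKM of *itgb1b.2* (ENSDARG00000022689, chromosome 2, 43638983 to 43653328) was 13.8, 17.3 and 14.8 in WT and 7.28, 6.06 and 5.61 in *mgt*. That is a log2 fold change of -1.21 (SE 0.14, limma adjusted p = 0.00178), the lowest of any chain tested. The copy between these on the chromosome, *itgb1b.1* (ENSDARG00000053232, 43619555 to 43635777), had an RPKM of 41.8, 44.1 and 34.3 in WT and 33.1, 31.4 and 28.4 in *mgt*. Every *mgt* library was again below every WT library, but at a log2 fold change of -0.36 (SE 0.12) the adjusted p of 0.0507 from limma missed the threshold. Over 18 fits, this main fit included, it was called lower in 6 and higher in none. Among the 6 were those without WT replicate 1 (adjusted p = 0.036) and without WT replicate 3 (adjusted p = 0.032, both from limma). The calls of *itgb1b* and *itgb1b.2* held in each of the 18 fits, and that of *itgb1a* was lost only with median-of-ratios factors (log2 fold change 0.36, limma adjusted p = 0.12).

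Taken as shares of the summed RPKM of the 4 beta 1 genes, *itgb1b.1* held 41.6%, 40.1% and 38.2% in WT and 28.1%, 27.6% and 26.5% in *mgt*. The share of *itgb1b.2* went from 13.7%, 15.8% and 16.4% to 6.17%, 5.32% and 5.24%. In contrast, *itgb1b* went from 23.8%, 20.7% and 23.1% to 36.0%, 35.8% and 35.8%, and had the largest share of the summed RPKM in every *mgt* library. The sum itself was 101, 110 and 89.9 RPKM in WT and 118, 114 and 107 in *mgt*, and the groups overlapped. A ratio within a library does not depend on its scaling, and the ratio of *itgb1b* to *itgb1b.2* was 1.31 to 1.73 in WT and 5.83 to 6.83 in *mgt*. The genes *itgb1b*, *itgb1b.1* and *itgb1b.2* lie within 76.0 kb of chromosome 2, with 3.21 kb between the last pair. Reads that fit more than one of such copies could have been split or lost in the authors' counting, so the level of each copy is uncertain to that extent. The shares and their order also depend on the gene length behind RPKM, which is not given. In the genome *itgb1b* spans 6.60 kb and *itgb1a* 41.3 kb, so the shares may not be those of reads or transcripts.

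**Figure D3:**
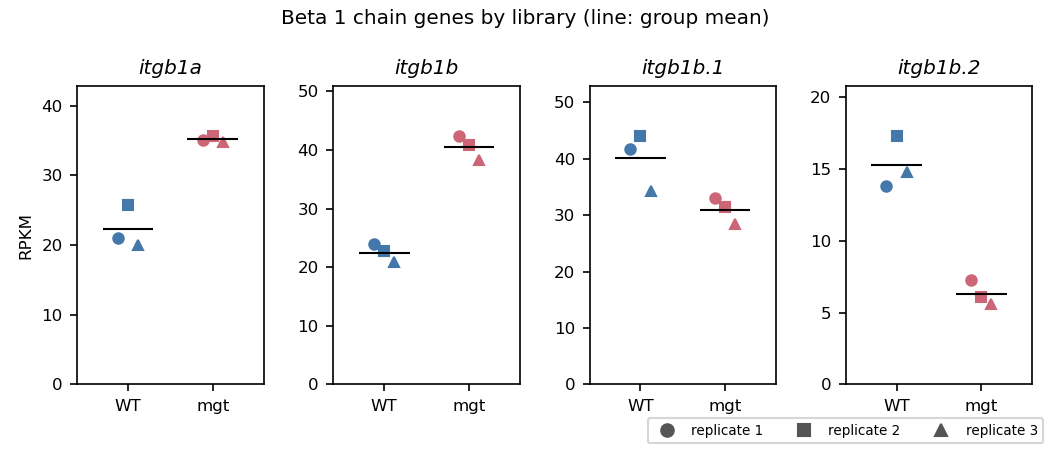
RPKM (y axis, from 0) of the 4 genes of the beta 1 chain in each library of WT and *mgt* (x axis), with marker shapes for the replicates and a line at the group mean. The *mgt* points of *itgb1a* and *itgb1b* lie above all WT points, and those of *itgb1b.1* and *itgb1b.2* lie below all WT points.

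The largest log2 fold change of any chain tested was that of *itga11a*, a collagen-binding alpha chain. The alpha 11 chain, a receptor for fibrillar collagen on mesenchymal cells in mammals, is encoded by a pair of genes. The RPKM of *itga11a* (ENSDARG00000036086, chromosome 7, 33176517 to 33248773) was 1.62, 1.77 and 1.67 in WT and 7.05, 6.85 and 7.33 in *mgt*. Its group means differed 4.20-fold while neither group varied by more than 4.53% (SD as a percent of the mean), and the log2 fold change was 1.79 (SE 0.11, limma adjusted p = 0.000194). The other copy, *itga11b* (ENSDARG00000007950, chromosome 25, 1343161 to 1426876), had an RPKM of 0.84, 0.75 and 0.54 in WT and 1.90, 1.86 and 2.15 in *mgt*, a log2 fold change of 1.04 (SE 0.14, limma adjusted p = 0.00298). Neither gene lost its call in any of the 18 fits. With the trend with span removed, the log2 fold changes of *itga11a* and *itga11b* were 1.47 and 0.67. At a larger fold threshold, which the study's methods name while its results use the smaller one applied here, and which 8.26% of genes passed upward and 2.38% downward, *itga11a* was the only chain called.

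Chains for alpha 1 and alpha 10 were also called higher, at a smaller size. For *itga1*, a receptor for collagens of the basement membrane among others, the RPKM was 5.57, 6.61 and 4.70 in WT and 8.72, 9.13 and 8.84 in *mgt* (log2 fold change 0.63). The alpha 10 chain is known from mammalian cartilage, and its gene *itga10* had 1.93, 1.47 and 1.35 in WT and 2.80, 2.65 and 2.49 in *mgt* (log2 fold change 0.60). Neither call survived leaving out any single *mgt* replicate (limma adjusted p from 0.058 to 0.078), removing the span trend (log2 fold changes 0.20 and 0.26) or quantile normalization (0.29 and 0.23). With median-of-ratios factors *itga1* lost its call (0.34, limma adjusted p = 0.11), and that of *itga10* was also lost without WT replicate 2 and without WT replicate 3 (limma adjusted p = 0.055 and 0.053).

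The alpha 2 chain, the collagen receptor of epithelia and platelets in mammals, has 3 genes next to *itga1* on chromosome 10, within 210 kb that include *itga1*. Between the starts of *itga2.1* and *itga2.3* lies the start of 1 other gene. The 3 copies did not move together. The RPKM of *itga2.3* was 0.63, 0.73 and 0.88 in WT and 1.22, 1.42 and 1.29 in *mgt*, and it was called higher (log2 fold change 0.54, SE 0.12, limma adjusted p = 0.0158). For *itga2.2*, the most abundant copy, it was 3.94, 3.76 and 2.55 in WT and 3.35, 2.79 and 2.44 in *mgt*, with overlapping groups and a log2 fold change of -0.21 (SE 0.19). It was called lower with median-of-ratios factors (-0.47, limma adjusted p = 0.048) and with quantile normalization (-0.60, limma adjusted p = 0.023). In *itga2.1* the groups overlapped as well, at 1.19, 1.49 and 0.83 in WT and 1.55, 1.44 and 2.24 in *mgt* (log2 fold change 0.43, SE 0.21). The ratio of *itga2.2* to *itga2.3* was 2.90 to 6.25 in WT and 1.89 to 2.75 in *mgt*. The call of *itga2.3* was lost without any one *mgt* replicate (limma adjusted p from 0.054 to 0.073) and with median-of-ratios factors or quantile normalization. As neighbouring copies, these genes carry the same uncertainty in read assignment as the beta 1 genes. Summed over the 7 collagen-binding chains, RPKM was 15.7, 16.6 and 12.5 in WT and 26.6, 26.1 and 26.8 in *mgt*. The group means of this sum differed 1.77-fold. For the other alpha classes the ratio of *mgt* to WT was 2.55 (leukocyte), 2.14 (alpha 4 and 9), 1.14 (RGD-binding) and 0.85 (laminin-binding). Beside this, 5 of 8 markers of cartilage, where collagen receptors are also found, were called higher and 0 lower. The share of all genes called higher was 31.8%. The markers had a summed RPKM of 587 to 711 in WT and 1350 to 1427 in *mgt*, and none was at 0. Their part in the collagen-binding chains was not tested.

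**Figure D4:**
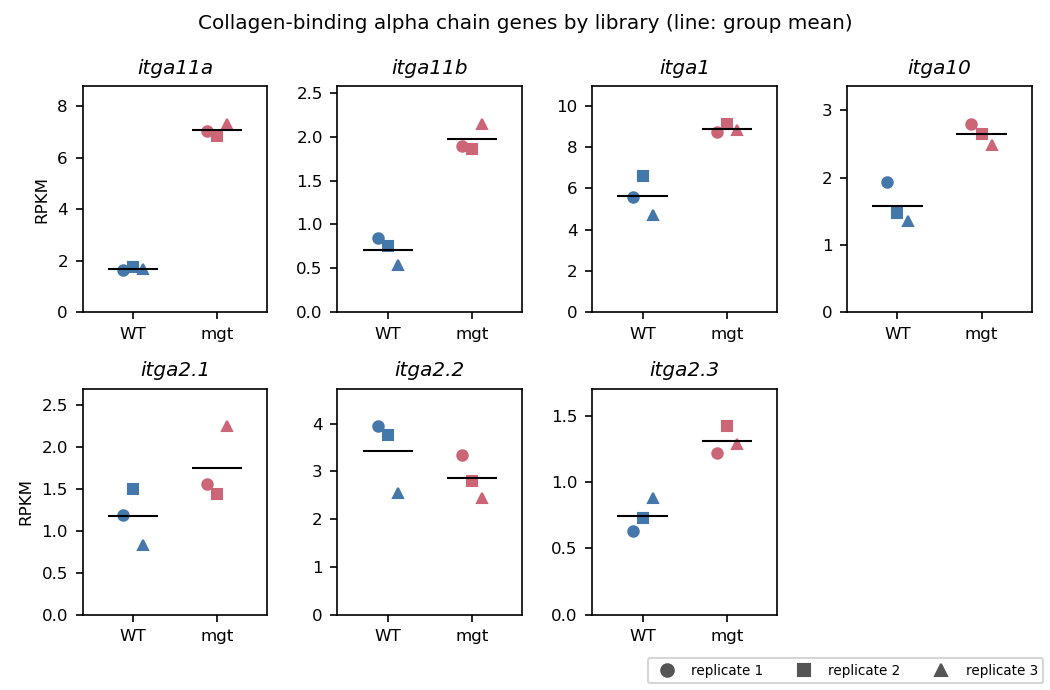
RPKM (y axis, from 0, a scale for each gene) of the 7 collagen-binding alpha chain genes in each WT and *mgt* library, with marker shapes for the replicates and a line at the group mean. In *itga11a* the WT points lie at 1.62 to 1.77 and the *mgt* points at 6.85 to 7.33, whereas the groups overlap in *itga2.1* and *itga2.2*.

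Laminin-binding chains showed no common direction. No gene named *itga7*, which also belongs to this class, was found in the deposited table. The alpha 6 chain joins beta 1 or, in the hemidesmosomes that fix the epidermis to its basement membrane, beta 4, and its copies moved apart. The RPKM of *itga6b* (ENSDARG00000069946, chromosome 1, 31019165 to 31064706) was 15.9, 20.9 and 15.6 in WT and 12.7, 10.9 and 11.1 in *mgt*, a log2 fold change of -0.57 (SE 0.14, limma adjusted p = 0.0208). For *itga6a* (ENSDARG00000042282, chromosome 9, 3429662 to 3486488) it was 2.25, 1.42 and 1.28 in WT and 3.30, 3.54 and 3.44 in *mgt*, a log2 fold change of 0.90 (SE 0.19, limma adjusted p = 0.0118). So the abundant copy was lower and the rarer copy higher in every *mgt* library, and the ratio of *itga6a* to *itga6b* went from 0.068 to 0.14 in WT to 0.26 to 0.33 in *mgt*. After rescaling the libraries to equal sums, *itga6b* lost its call (log2 fold change -0.34, limma adjusted p = 0.099), as it did without any one *mgt* replicate (limma adjusted p from 0.053 to 0.083). The call of *itga6a* was lost without *mgt* replicate 2 (limma adjusted p = 0.055) and without *mgt* replicate 3 (0.053). A further gene of this name, *itga6l*, had an RPKM of 0.51, 0.55 and 0.50 in WT and 0.15, 0.19 and 0.19 in *mgt*. It was left out of the test by its mean of 0.35, and with no filter it was called lower (log2 fold change -0.59).

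The alpha 3 chains and the beta 4 chain, all known from epithelia resting on laminin, were not called. The RPKM of *itga3b* was 15.5, 14.2 and 10.4 in WT and 13.9, 12.9 and 12.9 in *mgt*, a log2 fold change of 0.001 (SE 0.16). For *itga3a* it was 4.96, 5.46 and 4.05 against 4.44, 3.54 and 3.35, and for *itgb4* 7.49, 7.51 and 3.97 against 9.81, 7.29 and 7.54. The groups overlapped in all 3 genes, and much of the spread lay in WT replicate 3 and *mgt* replicate 1. From its value of 0.001, *itga3b* turned negative in 5 alternatives, which changed the scaling, removed the span trend or left out a replicate. The gene *itga3a* was called lower with median-of-ratios factors, quantile normalization or the span trend removed (log2 fold changes -0.59, -0.70 and -0.63). Against 15.6% of all genes called lower, 6 of 9 markers of epidermis set beside these chains were called lower and 0 higher. Their summed RPKM was 10771 to 11562 in WT and 3186 to 3679 in *mgt*, most of it from the keratins *krt4*, *krt5* and *krt91*, while *epcam*, *cdh1* and *tp63* were not called and no marker was at 0. What part this had in the laminin-binding chains was not tested.

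Among the chains that bind RGD motifs, *itgav*, the alpha chain with the highest level, was not called. Its RPKM was 42.0, 40.6 and 30.7 in WT and 45.4, 38.4 and 37.2 in *mgt* (log2 fold change 0.10, SE 0.15), and its direction turned negative without WT replicate 3 and in 2 other alternatives. Its partners other than beta 1 were mixed. The gene *itgb8*, whose chain activates latent TGF-beta in mammals, had an RPKM of 0.98, 0.37 and 0.60 in WT and 1.57, 1.84 and 1.73 in *mgt*, a log2 fold change of 0.98 (SE 0.20, limma adjusted p = 0.0118), the highest of the beta chains. This call was lost without *mgt* replicate 2 or *mgt* replicate 3 (limma adjusted p = 0.053 and 0.0504).

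The beta 3 chain has a pair of genes that differed. For *itgb3b* the RPKM was 2.38, 3.27 and 3.00 in WT and 4.30, 4.53 and 4.68 in *mgt*, and it was called higher (log2 fold change 0.57, SE 0.14, limma adjusted p = 0.0198). Its copy *itgb3a* had 13.0, 12.4 and 7.93 in WT and 10.8, 7.66 and 6.98 in *mgt*, with overlapping groups and a log2 fold change of -0.36 (SE 0.24). The ratio of *itgb3a* to *itgb3b* was 2.64 to 5.46 in WT and 1.49 to 2.50 in *mgt*. Without any one *mgt* replicate, and with median-of-ratios factors or quantile normalization, *itgb3b* was no longer called, and under the latter 2 settings *itgb3a* was called lower. The gene *itgb5* rose from 7.17 to 9.55 RPKM in WT to 11.4 to 11.8 in *mgt* (log2 fold change 0.50) and was called in 10 of 18 fits. The call was lost when WT replicate 2, WT replicate 3 or any *mgt* replicate was left out, with median-of-ratios factors or quantile normalization, and with the span trend removed. In *itgb6*, an epithelial chain in mammals, the log2 fold change was 0.20 (SE 0.15), with overlapping groups.

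The fibronectin receptor chain *itga5*, which zebrafish need for the boundaries of anterior somites, had an RPKM of 2.26, 2.53 and 1.89 in WT and 3.94, 3.68 and 3.65 in *mgt* (log2 fold change 0.65, SE 0.14, limma adjusted p = 0.0118). For *itga8*, the nephronectin receptor chain, it was 4.07, 4.84 and 4.15 against 6.01, 6.06 and 6.35 (log2 fold change 0.46). In both, the lowest *mgt* library was above the highest WT library. Both calls were lost without any one *mgt* replicate (limma adjusted p from 0.054 to 0.095). They were also lost with the span trend removed (log2 fold changes 0.22 and -0.02), with median-of-ratios factors (0.39 and 0.18) and with quantile normalization (0.25 and 0.08). For *itga8* the call was also lost without WT replicate 3 (limma adjusted p = 0.058) and in the fit with a replicate block.

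Chains for alpha 4 and alpha 9 about doubled on the RPKM scale, by 2.08-fold and 2.21-fold between group means. The alpha 4 chain binds fibronectin and Vcam1 on leukocytes and other cells, and alpha 9 binds tenascin-C and other matrix proteins. The gene *itga4* had an RPKM of 1.96, 2.68 and 1.98 in WT and 4.78, 4.81 and 4.19 in *mgt* (log2 fold change 0.92, SE 0.15, limma adjusted p = 0.0055). In *itga9* the values were 2.12, 2.41 and 1.81 against 4.44, 4.35 and 5.20 (log2 fold change 0.98, SE 0.14, limma adjusted p = 0.00384). Each was called in 17 of 18 fits. The exception was quantile normalization for *itga4* (0.53, limma adjusted p = 0.087) and the removed span trend for *itga9* (0.40, limma adjusted p = 0.11).

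The alpha chains of the leukocyte class were low, with a mean RPKM over all libraries of 0.24 for *itgam* to 1.2 for *itgae.1*. Those tested for alpha E, which pairs with beta 7 on lymphocytes in mammals, were called higher in each of the 18 fits. The RPKM of *itgae.1* was 0.73, 0.41 and 0.66 in WT and 1.74, 2.08 and 1.61 in *mgt* (log2 fold change 1.08, SE 0.16, limma adjusted p = 0.00406), and that of its neighbour *itgae.2* was 0.80, 0.68 and 0.60 against 1.40, 1.94 and 1.52 (log2 fold change 0.82). The ratio of *itgae.1* to *itgae.2* overlapped between groups, and as they lie within 36.1 kb of chromosome 15 their read assignment is uncertain too. The gene for beta 7, *itgb7*, had 0.85, 0.83 and 0.86 in WT and 1.16, 1.58 and 1.18 in *mgt* (log2 fold change 0.42). It was called in 8 of 18 fits. Among the settings that lost it were those without WT replicate 2, WT replicate 3 or any *mgt* replicate and the replicate block. For *itgb2*, the beta chain common to leukocytes, the *mgt* libraries (2.87, 3.04 and 3.44) all lay above those of WT (2.13, 2.70 and 2.22), but the adjusted p of 0.077 from limma missed the threshold. Its partner *itgam* had 0.17, 0.16 and 0.18 in WT and 0.23, 0.39 and 0.29 in *mgt*, and the thrombocyte chain *itga2b* 0.27, 0.19 and 0.22 against 0.24, 0.47 and 0.45, both below the level tested.

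Markers of blood cells were in part higher. Of 11 leukocyte markers tested, 5 were called higher, 6 were not called and 0 were lower, against 31.8% of all genes called higher, and their summed RPKM was 44.9 to 52.8 in WT and 71.7 to 73.6 in *mgt*. Of 7 thrombocyte markers, 6 were tested, of which 4 were called higher (*gp1bb*, *gp9*, *thbs1b* and *gata1a*) and 0 lower. The summed RPKM of this list was 26.2 to 33.7 in WT and 69.7 to 73.4 in *mgt*. This sum is mostly *thbs1b*, which many other cells express. No marker on either list was at 0, and the part of these cells in the chains was not tested. All 8 endothelial markers were called higher too, with sums of 25.4 to 29.1 RPKM in WT and 51.4 to 55.4 in *mgt*, as were all 8 erythrocyte markers. Of 9 skeletal muscle markers 1 was called higher and 1 lower, and their sum varied more among the WT libraries, from 27711 to 47059 RPKM, than between groups (29044 to 29722 in *mgt*). Of 8 markers of tendon and myoseptum 4 were called higher and 3 lower, against 15.6% of all genes called lower.

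The tested chains contain 14 pairs of copies that share a name up to a final letter or number, and in 11 pairs the range of the ratio in *mgt* did not overlap that in WT (p = 0.10 each by the exact permutation test). Among 2449 pairs of other genes tested whose names are built in the same way, 57.3% had no overlap, and the difference between these shares was not tested. The pairs share libraries and, within the beta 1 genes, members. In 1 of the 11, *itga3a* to *itga3b*, the ranges nearly touched (0.321 to 0.389 in WT and 0.260 to 0.321 in *mgt*). The pairs with overlap were *itgb1a* to *itgb1b*, *itgae.1* to *itgae.2* and *itga2.1* to *itga2.3*. Within groups, the chains varied by a median of 16.1% of the mean in WT and 7.95% in *mgt*, and the spread was larger in WT for 26 of 30 chains. WT replicate 3 was the lowest WT library in 21 of 33 chains and *mgt* replicate 1 the highest *mgt* library in 14.

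The 2 genes with an integrin name that encode no chain were not called. The RPKM of *itgbl1* was 20.6, 28.7 and 30.8 in WT and 22.0, 24.7 and 22.3 in *mgt*, with overlapping groups (log2 fold change -0.19, SE 0.16). For *itgb1bp1*, whose protein binds the beta 1 tail and holds back the activation of the receptor in mammals, it was 13.7, 13.8 and 16.7 against 11.6, 12.5 and 12. Every *mgt* library of *itgb1bp1* was below every WT library, at a log2 fold change of -0.27 (SE 0.11) and an adjusted p of 0.083 from limma.

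Inside the cell, the tails of most integrin beta chains are linked to actin by talin, kindlin, vinculin, filamin and tensin proteins. In a list of 24 such genes 23 were found and tested, of which 13 were called higher and 1 lower. The shares of all genes were 31.8% and 15.6%. The median log2 fold change of the list was 0.46, against 0.29 for all genes. Gene span was not accounted for in this list or the other lists of partners below. The talin gene *tln1*, whose protein is the main activator of beta chains, had an RPKM of 18.9, 21.5 and 16.3 in WT and 26.0, 25.5 and 25.9 in *mgt* (log2 fold change 0.45, SE 0.12, limma adjusted p = 0.024), and *tln2b* had a log2 fold change of 1.23. Of the kindlin genes, *fermt2*, which is broadly expressed in mammals, had 7.53, 7.39 and 7 in WT and 13.0, 13.6 and 12.4 in *mgt* (log2 fold change 0.79, SE 0.096, limma adjusted p = 0.0021). The epidermal *fermt1* (log2 fold change -0.25) and the blood cell genes *fermt3a* (0.17) and *fermt3b* (0.15) were not called. Among the others, *vclb* (0.87), *zyx* (0.74), *flna* (0.66) and *tns2a* (1.05) were called higher and *flnb* (-0.68) was called lower, while *vcla* (0.06) was not called.

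The complex of integrin-linked kinase, PINCH and parvin, which holds beta tails to actin in muscle attachments, gave calls in both directions. Of 9 genes listed 8 were tested, with 3 called higher, 1 lower and a median of 0.29. All genes tested had 31.8% called higher, 15.6% lower and the same median of 0.29. The kinase gene *ilk* had an RPKM of 7.14, 7.30 and 6.83 in WT and 11.4, 11.2 and 11.0 in *mgt* (log2 fold change 0.63, SE 0.094, limma adjusted p = 0.0042), and the PINCH gene *lims1* was called higher at 0.75. The parvin gene *parvb*, at 19.5, 23.7 and 25.8 in WT and 16.4, 15.1 and 16.5 in *mgt*, was called lower (log2 fold change -0.50).

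Kinases and adaptors of adhesion sites had more calls, with 15 of 20 tested genes higher and 1 lower (23 listed) and a median of 0.74. All genes tested had 31.8% called higher, 15.6% lower and a median of 0.29. Here too the trend with gene span was not removed. For *ptk2aa*, one of the genes of focal adhesion kinase, the RPKM was 9.11, 6.02 and 5.33 in WT and 15.9, 16.1 and 16.2 in *mgt* (log2 fold change 1.21, SE 0.19, limma adjusted p = 0.00499). Its relative *ptk2bb* was called lower (log2 fold change -0.49). The paxillin genes were another pair of copies apart, with *pxnb* at 1.06 and called and *pxna* at -0.04. In this list WT replicate 1 stood between the groups, with a summed RPKM of 176 against 127 and 117 in WT replicates 2 and 3 and 215 to 219 in *mgt*. Neuron markers stood likewise, at 608 in WT replicate 1, 205 and 275 in the other WT libraries and 691 to 718 in *mgt*, and their part in the list was not tested.

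Among the ligands, the fibronectin genes were called higher, and *fn1b* had the highest log2 fold change of the 5 lists. The gene *fn1b* had an RPKM of 42.2, 46.7 and 20.9 in WT and 233, 185 and 181 in *mgt* (log2 fold change 2.50, SE 0.30, limma adjusted p = 0.00206), and *fn1a* had 10.2, 11.6 and 7.49 against 31.6, 28.4 and 29.8 (log2 fold change 1.59). In both every *mgt* library was at least 2 times the highest WT library, whereas the receptor chain *itga5* differed 1.69-fold between group means. The matrix genes *ccn2a* (2.13), *ccn1* (1.64), *thbs2b* (1.58), *fbn2b* (1.55) and *tnc* (1.1), whose proteins bind integrins of the alpha v, alpha 5 or alpha 9 chain among others, were called higher. Lower were *vtna* (-0.76), a vitronectin gene, *spp1* (-0.74), the osteopontin gene, *postna* (-0.84) and *thbs3b* (-0.57). In all, 33 of 36 genes on this list were found and 31 tested, with 17 called higher, 4 lower and a median of 0.56. All genes tested had 31.8% called higher, 15.6% lower and a median of 0.29. Of the genes on this list *thbs1b*, *thbs4b*, *tnc* and *cdh1* also stand on a marker list. One gene, *thbs1a*, was listed at 0 in every library.

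Laminin and collagen genes were mostly higher. Of 23 tested (24 listed), 16 were called higher and 1 lower, with a median of 0.62. All genes tested had 31.8% called higher, 15.6% lower and a median of 0.29. The trend with gene span was not removed for this or any other of the 5 lists. For *lama2*, the laminin alpha 2 gene of muscle, the RPKM was 5.74, 9.40 and 6.25 in WT and 20.7, 18.8 and 18.7 in *mgt* (log2 fold change 1.41, SE 0.19, limma adjusted p = 0.0028). The epidermal *lama3* was the gene called lower (-0.42), and *lamb4* was not called (-0.70). Among collagens, *col2a1a* of cartilage had a log2 fold change of 1.74 and *col1a1b* and *col1a2*, ligands of the alpha 11 and alpha 2 receptors, 0.62 and 0.59, all called higher, while *col1a1a* (0.35) was not called. In the 5 lists of partners together, *itga11a* at 1.79 was passed by *fn1b*, *ccn2a* and *lama1* (1.90).

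**Figure D5:**
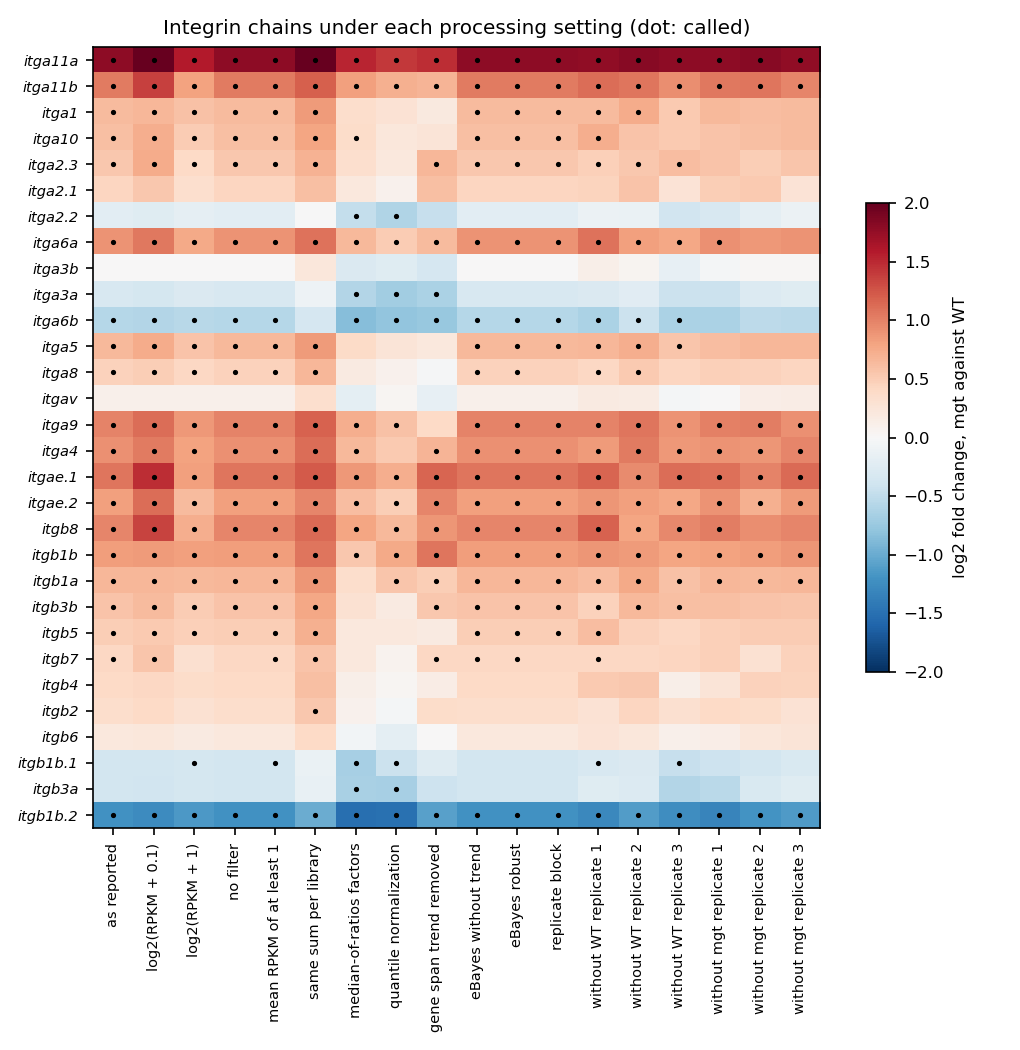
Log2 fold change of *mgt* against WT (color) for the 30 integrin chains (rows) under 18 settings of the processing (columns), with a dot where the chain was called. The rows of *itga11a*, *itga11b*, *itgae.1*, *itgae.2* and *itgb1b* are called higher and that of *itgb1b.2* lower in all 18 columns, whereas chains such as *itga8*, *itgb5* and *itgb7* lose their calls in many.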

How the data were processed

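Whole-larva RNA was depleted of ribosomal RNA, by a kit that the labels do not give pool by pool. Per the labels and the study's methods, the authors used cutadapt 5.2 for trimming, STAR for alignment to GRCz11 and HTSeq for counting reads on genes. They deposited RPKM values with 2 decimals in a table whose name says that outliers had been left out, with no rule for these in the sources used here. The gene length behind them is not given in the sources used here. DESeq2, which the authors used on counts, was not used, since the values here are RPKM. Columns with the authors' SD and ratio were not used. Their WT mean equals that of WT replicates 2 and 3 within rounding in 32520 genes, and all 6 libraries were used here. The label of WT replicate 3 gives its library and its column different numbers, and the column it names was used. The labels call the pools biological replicates and a figure legend of the study calls them technical, and p-values measure only the spread between these pools.

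The table held 32521 lines, and 1 repeated identifier was dropped. Totals of about 38300000 to 50300000 reads were read from the RPKM steps of genes spanning at most 160 bases. Genes whose mean RPKM reached 0.5, 20435 in all, were fitted on log2(RPKM + 0.5) with limma 3.58.1 (lmFit, eBayes with trend) in R 4.3.3, with Benjamini-Hochberg adjustment over all of them. Called genes had an adjusted p below 0.05 and a log2 fold change of at least 0.32 in size, the fold that the study's results use, and its methods name one of 2.38-fold. The code was tested on simulated data. Members and lists were chosen with earlier results of these data known. Values in every library were given by rule for the 3 most abundant chains and the 3 highest and lowest called chains of each kind, and for copies with different calls, 17 chains in all. Other genes were named after their values were seen. Alternatives were pseudocounts of 0.1 and 1, no filter or a mean RPKM of at least 1, rescaling to the same sum, median-of-ratios factors, quantile normalization, a lowess trend with gene span removed (span 0.3), other eBayes settings and thresholds, a replicate block, and leaving out each replicate. Plots were drawn with matplotlib 3.10.9.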

Additional observations from a re-analysis of the deposited data

How the results depend on the processing

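Of the 30 chains tested, 18 were called higher and 2 lower, against 31.8% and 15.6% of all genes. With median-of-ratios factors these counts were 10 and 6 (23.8% and 24.4% of all genes). They were 9 and 6 with quantile normalization (22.9% and 26.1%), and 19 and 1 after rescaling the libraries to equal sums (43.3% and 9.3%). These scalings moved the median of all genes from 0.29 to 0.03, -0.002 and 0.49 on the log2 scale. Leaving out 1 replicate at a time gave 8 to 18 chains higher and 1 to 3 lower. Over the same fits the share of all genes called higher ranged from 11.5% to 52.2%, and that called lower from 8.28% to 18.1%. At a threshold of 2.38-fold the counts were 1 and 0 from limma, where all genes had 8.26% higher and 2.38% lower. Such a fall at an unadjusted p below 0.05 was seen in 0 chains. The replicate block gave 16 and 2, where all genes had 27.3% and 12.4%. The labels do not say that replicate numbers pair the samples. Correlations of same-numbered deviations were -0.030, 0.030 and 0.027, and those of differently numbered ones ran from -0.119 to 0.0843. With 3 pools to a group, these values cannot show whether pools were paired. The median log2 fold change of the alpha chains was 0.73 with a pseudocount of 0.1, 0.82 with the same sum, 0.35 with median-of-ratios factors, 0.24 with quantile normalization and 0.33 with the span trend removed. Under the last 4 of these settings the beta chains were at 0.59, 0.16, 0.058 and 0.27. The sign turned for *itgav* with median-of-ratios factors (-0.20), the span trend removed (-0.16) and without WT replicate 3, and for *itga3b* with median-of-ratios factors (-0.29), quantile normalization (-0.24), the span trend removed (-0.34), without WT replicate 3 and without *mgt* replicate 1. Leaving out 1 replicate at a time, *itgav* ranged from -0.039 to 0.18 and *itga3b* from -0.16 to 0.11. Neither gene was called in any fit. The cause was not tested. Chains near an RPKM of 0.5 rest on some 20 reads per kilobase. The largest standard errors, though, were those of *itgb4* (0.26) and *itgb3a* (0.24), whose mean RPKM was 7.27 and 9.78.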
